A study of Mus musculus with 11 samples.

Results

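The regions described here are stretches of chromatin that lie in the wide gaps between protein-coding genes and whose acetylation of histone H3 at lysine 27 (H3K27ac) differed between *Tbx5*G125R/+ and control atrial cardiomyocytes. The deposited table lists 1652 regions that the authors called as differentially acetylated, and 267 of them were taken because the midpoint of their top bin lay more than 50 kb from the body of every protein-coding gene. The top bin is the most significant 500 bp bin of a region, and all levels below are its normalised reads, the read number after division by the size factor of the library. Genes were those of the RefSeq annotation of mouse build mm10, of which 21896 protein-coding and 16949 non-coding genes were used, and regions of both directions were kept. Regions that the authors did not list were not analysed here, so every test below was run on regions already chosen for a difference between these same libraries and is no independent evidence of one.

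H3K27ac marks active enhancers and promoters. Enhancers act on genes over long distances by looping of the DNA, and the large gene-free intervals, or gene deserts, that surround many developmental regulators hold clusters of them. Tbx5 is a T-box transcription factor that binds such elements and drives the gene programs of the atria and the conduction system, and heterozygous variants in the human gene cause Holt-Oram syndrome.

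The 6 *Tbx5*G125R/+ libraries came from mice that carry the glycine-to-arginine change on 1 allele, a point mutation which per the study's methods was made with CRISPR-Cas9. The 5 control libraries came from mice labelled Control, with no further genotype given. All mice were 8 to 12 weeks old, left and right atria were pooled, and nuclei were sorted on PCM1, which marks the nuclear envelope of cardiomyocytes, so signal of the left and the right atrium cannot be told apart. Sex and strain are not stated in the labels. Nor do they say whether each library is 1 mouse, so p values measure the spread between libraries. H3K27ac was profiled with CUT&RUN, in which an antibody guides a nuclease to the marked chromatin.

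The sequences shown first are those of the microRNAs (miRNAs) that lie in or beside these regions, because regions at a pair of related miRNA host genes moved in opposite directions. *Mir100hg* on chromosome 9 is the host gene of miR-100, let-7a-2 and miR-125b-1, and *Mir99ahg* on chromosome 16 is the host gene of their paralogs miR-99a, let-7c-1 and miR-125b-2. A further region lay near *Mir101a* on chromosome 4. Mature sequences are from RefSeq (GRCm38.p6), and capitals mark the seed, bases 2 to 8, which pairs with target mRNAs:
mmu-miR-100-5p: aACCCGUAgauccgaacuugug
mmu-miR-99a-5p: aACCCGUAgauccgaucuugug
mmu-let-7a-5p: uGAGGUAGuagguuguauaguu
mmu-let-7c-5p: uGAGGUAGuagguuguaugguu
mmu-miR-125b-5p: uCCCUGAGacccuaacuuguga
mmu-miR-101a-3p: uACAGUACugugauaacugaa
miR-100-5p and miR-99a-5p share their seed and differ at 1 of 22 bases, as do let-7a-5p and let-7c-5p, while both miR-125b genes give the same mature miR-125b-5p.

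Promoters were searched next, since 12 of the 267 regions contained the promoter window of a non-coding gene and in 3 of them it reached into the top bin. A window spans 250 bases before to 50 bases after a gene's start. These 3 regions are shown with 1 window each, 5′ to 3′ on the gene's strand. Capitals mark exact matches, on either strand, to 11 motifs. T-box sites were searched as AGGTGT and as the longer string GGTGTGA, which overlap, and MEF2 sites were searched by name. KLF or SP sites were searched as CCGCCC and, in a second form, as CACCC, sites of GATA factors as AGATAA, sites of TEAD factors as GGAATG, E-boxes as the palindrome CAGCTG, sites of NKX factors as AAGTG, sites of AP-1 factors as TGANTCA and sites of ETS factors as CCGGAA. The windows are:
*A530001N23Rik*, chr13:60508791-60509090, minus strand: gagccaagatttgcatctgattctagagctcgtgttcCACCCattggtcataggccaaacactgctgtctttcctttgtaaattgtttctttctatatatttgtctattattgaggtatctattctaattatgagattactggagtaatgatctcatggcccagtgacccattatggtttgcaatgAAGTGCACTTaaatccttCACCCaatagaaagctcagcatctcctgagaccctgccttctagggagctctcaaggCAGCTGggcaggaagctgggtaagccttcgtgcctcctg
*1810008I18Rik*, chr7:65803783-65804082, plus strand: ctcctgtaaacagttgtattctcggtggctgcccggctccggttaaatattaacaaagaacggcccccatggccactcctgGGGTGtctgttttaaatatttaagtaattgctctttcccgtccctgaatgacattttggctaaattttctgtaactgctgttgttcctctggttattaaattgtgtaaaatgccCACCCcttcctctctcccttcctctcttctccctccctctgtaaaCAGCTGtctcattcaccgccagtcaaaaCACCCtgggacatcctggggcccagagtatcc
*Zmiz1os1*, chr14:25378627-25378926, minus strand: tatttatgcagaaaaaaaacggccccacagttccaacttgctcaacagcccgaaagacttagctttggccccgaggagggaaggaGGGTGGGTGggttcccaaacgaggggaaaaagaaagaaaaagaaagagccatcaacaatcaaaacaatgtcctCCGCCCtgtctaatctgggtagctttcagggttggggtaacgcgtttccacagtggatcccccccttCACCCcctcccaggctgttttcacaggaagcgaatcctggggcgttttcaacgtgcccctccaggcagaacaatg
All 3 windows held CACCC, which 57.5% of 32851 RefSeq promoter windows of this length hold. CAGCTG stood in the windows of *A530001N23Rik* and *1810008I18Rik* and in 16.3% of all windows, AAGTG in that of *A530001N23Rik* and in 46.4%, and CCGCCC in that of *Zmiz1os1* and in 35.7%. Neither T-box string stood in the 3 printed windows. Over all 19 windows of the 12 regions, AGGTGT stood in 3, namely a second window of *1810008I18Rik* outside the top bin and those of *Gm33734* and *4732465J04Rik*, and GGTGTGA in 0, against 13.7% of all RefSeq windows for AGGTGT and 3.98% for GGTGTGA. A match describes the letters only.

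At these 3 promoters the levels were as follows. The top bin at *A530001N23Rik* (chr13:60509001-60509500) had a lowest, median and highest level of 5.03, 18.9 and 43.6 normalised reads over the 6 *Tbx5*G125R/+ libraries, against 0 in all 5 control libraries. It was at least 30.8-fold higher in the mutant, counted against a floor of 3 reads over the control group, or 0.662 normalised reads (log2 fold 4.11 ± 0.49 SE, limma adjusted p = 5.7e-05). At *1810008I18Rik* (chr7:65803501-65804000), levels were 11.8, 20.9 and 48.5 in *Tbx5*G125R/+ and 2.13, 0, 1.12, 6.92 and 0 in control replicates 1 to 5. This 13.0-fold gain (limma adjusted p = 0.0033) was 32.6-fold without control replicate 4. At *Zmiz1os1*, an antisense neighbour of *Zmiz1*, levels of 107, 113 and 129 in *Tbx5*G125R/+ stood above 54.3, 61.3, 73.1, 69.2 and 54.6 in controls with no overlap, but the difference passed neither limma (adjusted p = 0.13) nor edgeR (adjusted p = 0.37), and its direction turned when libraries were rescaled on the listed bins.

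Depth differed between libraries, with size factors of 0.457 to 2.04 in *Tbx5*G125R/+ and 0.513 to 1.47 in controls. The top bins of all listed regions held 43183 to 161738 reads per *Tbx5*G125R/+ library and 27118 to 72442 reads per control library. Those of the distal regions held 7868 to 29087 reads in *Tbx5*G125R/+ and 3449 to 10432 in controls. The distal regions thus took 17.7 to 20.5% of the listed reads in *Tbx5*G125R/+ and 12.7 to 14.4% in controls. These read numbers and shares do not measure depth alone, because the bins were listed for a difference between the genotypes. Of the distal regions 86.5% were higher in the mutant, and of the other listed regions 80.0%, so higher values in the mutant are in part built in. Of the cardiomyocyte markers, 2 of 10 (*Actn2* and *Ryr2*) carried a listed region, and all 3 of these regions were lower in the mutant. Listed regions inside markers of other cell types numbered 2 higher and 1 lower in endothelial genes (2 of 10 markers, *Erg* and *Kdr*), and 1 higher each in fibroblast (*Pdgfra*, 1 of 10), leukocyte (*Mrc1*, 1 of 8) and smooth muscle or pericyte genes (*Rgs5*, 1 of 8). None was inside the 5 neural markers. The table gives no level for markers without a listed region, and whether other cells in the sorted nuclei have a part in the distal differences was not tested.

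Most of the distal regions gained H3K27ac. By the mean level of the top bin, 231 were higher and 36 lower in *Tbx5*G125R/+, so that 86.5% were higher. Regions with a higher or lower mean are named gains and losses below, and those that passed a test are said to be called, to have risen or to have fallen. Among the other 1385 listed regions 80.0% were higher, and the difference between these shares was not tested. In limma, fitted on log2(normalised reads + 1) of all listed bins with Benjamini-Hochberg adjustment over the highest region number, 126854, 221 distal regions (82.8%) rose and 24 (8.99%) fell. Over all listed regions 76.6% were called as increased and 10.4% as decreased, so the distal regions stood near this background. Leaving out 1 library at a time gave 196 to 223 called gains and 15 to 23 called losses. The lowest number of called losses, 15, was reached without control replicate 3. Of the 245 calls, 197 (186 gains and 11 losses) were kept whichever library was left out, and no region changed direction. The genotypes did not overlap in 211 of the gains (79.0% of the distal regions, against 73.2% over all listed regions) and in 25 of the losses (9.36%, against 15.1%). The remaining 31 regions overlapped, and 13 of them separated without *Tbx5*G125R/+ replicate 5, the shallowest mutant library. An edgeR quasi-likelihood test on the recovered reads called 215 gains and 32 losses, against background shares of 74.0 and 13.0%.

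The gains had little signal in controls and the losses had more, which is in part built in. Each region was listed for a difference between these libraries and sorted by its sign. The 231 increased regions had a median level of 31.4 normalised reads (interquartile range 23.2 to 55.8) in *Tbx5*G125R/+ and 2.51 (0.906 to 7.59) in controls, a median ratio of 13.0 with regions without control reads set at the floor. In 14 of them the controls had no reads at all in the top bin, in 33 they held 1 to 3 reads together, and in 79.2% the mean control level was under 10. Mean control levels of the losses started at 31.4 normalised reads. The 36 decreased regions had a median level of 15.8 (5.55 to 54.6) in *Tbx5*G125R/+ and 66.5 (44.1 to 150.6) in controls, a median fold of 4.20 lower. The other listed regions had like values, with medians of 29.9 in *Tbx5*G125R/+ and 2.22 in controls for gains (ratio 13.3), and 27.8 in *Tbx5*G125R/+ and 93.5 in controls for losses (3.39-fold lower). Increased distal regions were narrow (median width 2250 bp, against 2750 bp for other gains). Decreased distal regions had a median width of 2625 bp, against 6250 bp for other losses.

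**Figure D1:**
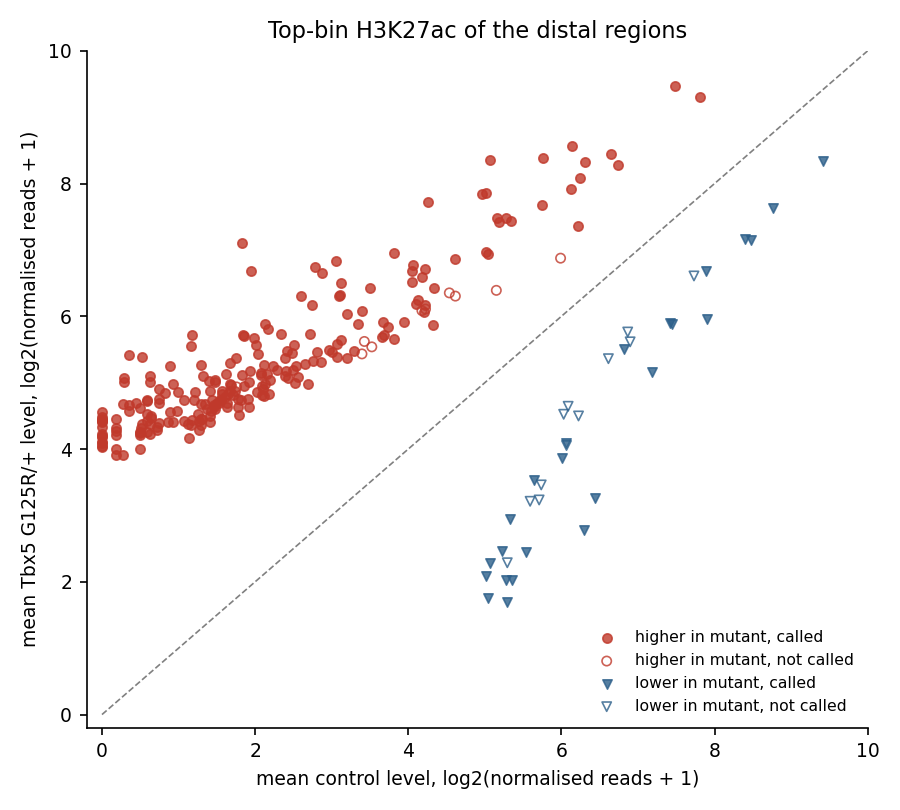
Each point is 1 of the 267 distal regions, with the mean log2(normalised reads + 1) of the 6 *Tbx5*G125R/+ libraries on the y axis and of the 5 control libraries on the x axis; red circles lie above and blue triangles below the dashed line of equal levels, and filled symbols passed limma. The 231 gains crowd at low control levels and the 36 losses start from higher ones.

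Each library had the following levels in these 2 sets of regions. The median over the 231 increased regions was 29.8, 31.3, 33.7, 33.0, 39.4 and 32.3 normalised reads in *Tbx5*G125R/+ replicates 1 to 6, against 3.20, 3.41, 1.12, 1.38 and 0 in control replicates 1 to 5. Control replicate 5 had 0 reads in 177 of these top bins, and without it limma called 223 gains and 23 losses. Its size factor of 0.513 was the smallest of the controls. That of *Tbx5*G125R/+ replicate 5 was smaller still (0.457), and this library had 0 reads in 9 of these bins. Over the 36 decreased regions the medians were 14.4, 15.1, 15.6, 17.5, 16.4 and 14.3 in *Tbx5*G125R/+ and 68.7, 63.7, 77.0, 75.5 and 95.6 in controls. No library median of one genotype reached into the range of the other in either set of regions. This follows in large part from the listing and sorting of the regions by the difference between these same libraries. These directions rest on the deposited size factors. When the libraries were rescaled on the listed bins alone by the trimmed mean of M values (TMM), the log2 folds shifted by -1.70 (median) and 27 gains and 36 losses were called, a share of gains of 42.9% in place of 90.2%. With DESeq2 size factors from the same bins the shift was -1.94 and the share of gains 35.7%, from 20 gains and 36 losses. Rescaling turned the sign of 7 distal regions with TMM and of 19 with DESeq2 size factors. Both rescalings take most bins as unchanged, whereas these bins were listed for a difference and 81.1% of them were higher in the mutant. A shift towards fewer gains is thus built in, and a turned sign cannot tell which scaling is right.

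**Figure D2:**
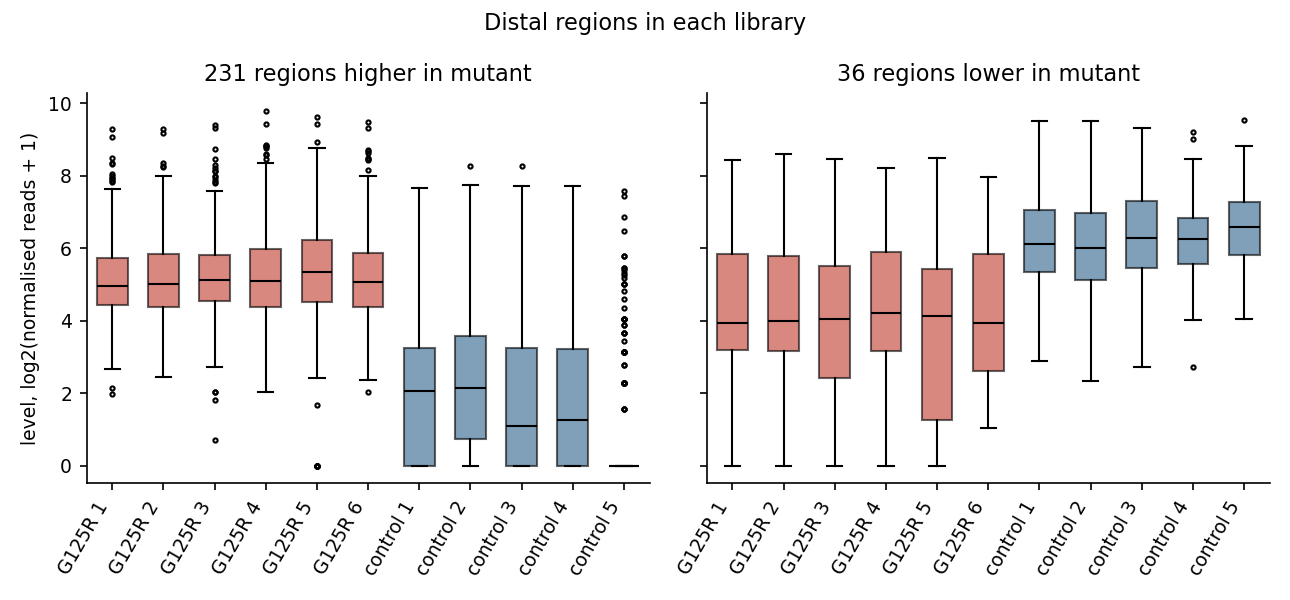
Boxes show the median and quartiles of log2(normalised reads + 1) over the 231 regions higher in mutant (left) and the 36 lower in mutant (right) in each library, with whiskers at 1.5 times the interquartile range. All 6 *Tbx5*G125R/+ medians of the increased regions (29.8 to 39.4 normalised reads) lie above the 5 control medians (0 to 3.41). The regions were sorted by this difference.

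The increased regions with the smallest p whose libraries did not overlap lay next to genes of very different kinds. Strongest by p was chr2:85253501-85254000, between *Lrrc55*, which encodes an auxiliary subunit of calcium-activated potassium channels, and the odorant receptor gene *Olfr987*. Its levels were 534, 654 and 691 in *Tbx5*G125R/+ (lowest, median, highest), against 202, 306, 209, 209 and 189 in control replicates 1 to 5. It rose 2.83-fold (log2 fold 1.51 ± 0.14 SE, limma adjusted p = 1.0e-05), though this direction turned under both rescalings on the listed bins. Between *Stim2*, a sensor of calcium stores, and the protocadherin gene *Pcdh7*, chr5:55357251-55357750 held 209, 345 and 432 in *Tbx5*G125R/+ and 61.8, 39.5, 72.0, 58.2 and 35.1 in controls. This 6.26-fold gain (log2 fold 2.62 ± 0.26 SE, limma adjusted p = 1.6e-05) lay 1236 kb from the nearer gene. Near *Negr1*, which encodes a neuronal adhesion molecule of the immunoglobulin family, chr3:156465751-156466250 held 79.9, 152 and 173 in *Tbx5*G125R/+ and 12.8, 0, 0, 0 and 0 in controls. Here 1 control library carried all of the control signal. The ratio was 53.4 with control replicate 1 and 206.1 without it (limma adjusted p = 1.9e-05 with all libraries).

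Further regions of this group had few control reads or none. At chr13:99830501-99831000, between the microtubule gene *Map1b* and *Cartpt*, which encodes a neuropeptide precursor, levels were 11, 18.9 and 39.4 in *Tbx5*G125R/+ and 0 in every control library, a gain of at least 32.2-fold. At chrX:76125501-76126000, between the actin-bundling gene *Pls3* and *Cldn34b3*, they were 6.23, 17.0 and 23.5 in *Tbx5*G125R/+ and 0 in every control library. This gain was at least 23.5-fold. The controls were likewise empty at chrX:12416751-12417250, between the corepressor gene *Bcor* and *Atp6ap2*, where *Tbx5*G125R/+ libraries held 8.73, 22.0 and 33.0 (at least 31.2-fold higher). They were also empty at chr16:93107001-93107500, 281 kb from *Runx1*, a transcription factor of blood formation, where levels in *Tbx5*G125R/+ were 5.16, 16.1 and 24.6 (at least 23.3-fold higher). In 3 more regions a single control library held reads. At chr16:15215501-15216000, between *Efcab1* and *Ube2v2*, levels were 24.6, 37.4 and 68.3 in *Tbx5*G125R/+ and 0, 1.36, 0, 0 and 0 in controls, a ratio of summed reads per size factor of 102 (95% exact counting interval 28.0 to 844). At chr18:55661001-55661500, between *Zfp608* and *Gramd3*, the *Tbx5*G125R/+ libraries held 13.1, 27.3 and 31.0 and the controls 1.07, 0, 0, 0 and 0. At chr3:137216001-137216500, 124.8 kb from the endothelial gene *Emcn*, they held 8.75, 13.9 and 22.0 in *Tbx5*G125R/+ and 0, 0.681, 0, 0 and 0 in controls. Limma adjusted p values of these 7 regions lay between 1.6e-05 and 2.1e-05, and edgeR called all of them.

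**Figure D3:**
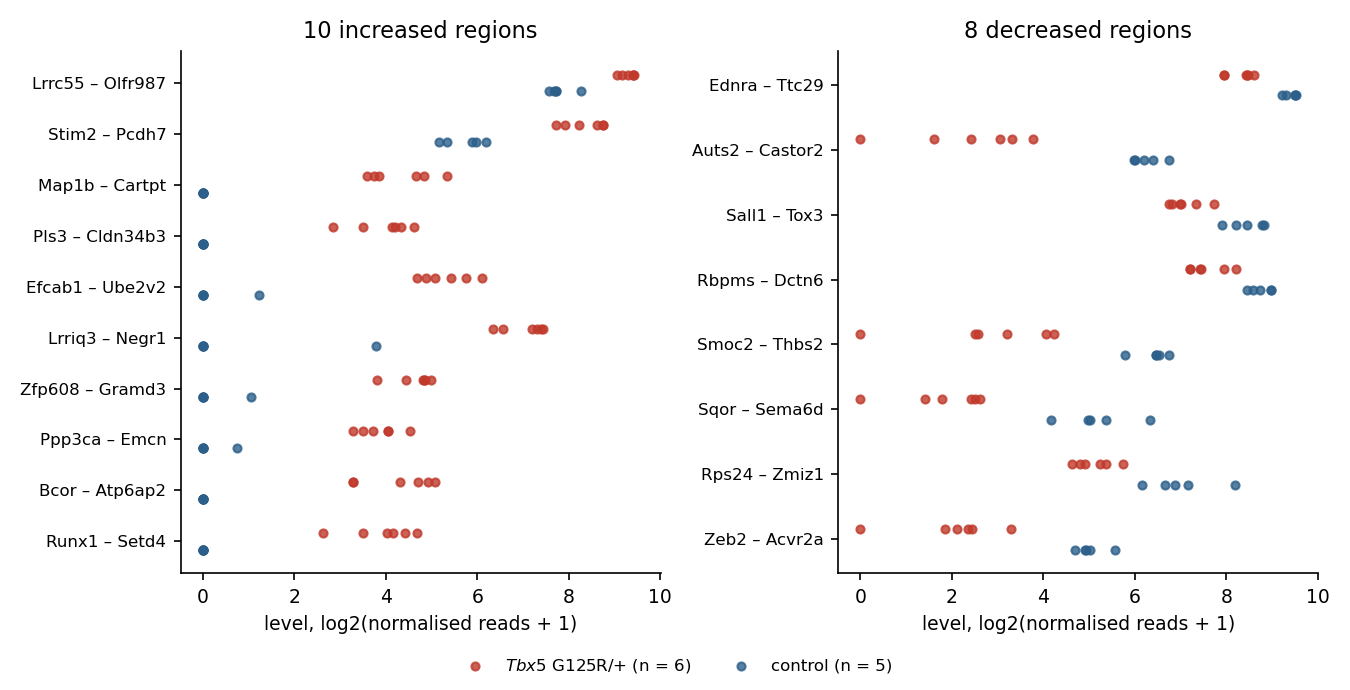
Each point is 1 library, on the log2(normalised reads + 1) scale, at the 10 increased (left) and 8 decreased (right) regions with the smallest p and no overlap between genotypes, named by the genes on either side; *Tbx5*G125R/+ (n = 6) in red above control (n = 5) in blue. Control levels at the increased regions are at most 1.36 normalised reads except between *Lrrc55* and *Olfr987*, between *Stim2* and *Pcdh7* and, in 1 library, between *Lrriq3* and *Negr1*, and the first of these 3 changes sign when rescaled on the listed bins.

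The decreased regions with the smallest p ranged from strongly acetylated regions that lost part of their signal to weaker ones with a few reads left in the mutant. Between *Ednra*, the receptor A of endothelin, and *Ttc29*, chr8:78026001-78026500 held 246, 347 and 386 in *Tbx5*G125R/+ and 728, 722, 635, 591 and 739 in controls. It fell 2.13-fold (log2 fold -1.10 ± 0.14 SE, limma adjusted p = 7.9e-05) and had the highest mean level of all distal regions over the 11 libraries. Near *Rbpms*, which encodes an RNA-binding protein, chr8:33980501-33981000 held 147, 172 and 296 in *Tbx5*G125R/+ and 507, 504, 385, 349 and 429 in controls (2.21-fold lower, limma adjusted p = 0.0011). Between the zinc finger gene *Sall1* and *Tox3*, chr8:90012751-90013250 held 107, 127 and 212 in *Tbx5*G125R/+ and 239.7, 437, 348, 296 and 452 in controls (2.52-fold lower, limma adjusted p = 0.0011). All 3 lie on chromosome 8 and kept a level above 100 in every *Tbx5*G125R/+ library.

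In 3 of the other regions the mutant levels were low. Between *Auts2*, a gene of neural development, and *Castor2*, chr5:132958501-132959000 held 0, 5.83 and 12.7 in *Tbx5*G125R/+ and 83.1, 63.4, 73.1, 62.3 and 107 in controls. It fell 13.2-fold (log2 fold -3.91 ± 0.62 SE, limma adjusted p = 8.6e-04). Between the genes of the matricellular proteins *Smoc2* and *Thbs2*, chr17:14518001-14518500 held 0, 6.62 and 17.9 in *Tbx5*G125R/+ and 87.3, 87.9, 54.0, 107 and 91.7 in controls (9.97-fold lower, limma adjusted p = 0.0022). Between *Sqor* and the semaphorin gene *Sema6d*, 255 kb from *Sqor* and 1025 kb from *Sema6d*, chr2:123064501-123065000 held 0, 3.40 and 5.16 in *Tbx5*G125R/+ and 40.5, 31.3, 16.9, 30.5 and 80.0 in controls (13.0-fold lower, limma adjusted p = 0.0028). *Tbx5*G125R/+ replicate 5 had no read at any of these 3 regions. Between *Rps24* and *Zmiz1* the loss lay between these extremes, with 23.7, 32.8 and 52.5 at chr14:24635001-24635500 in *Tbx5*G125R/+ and 70.3, 101, 142, 292 and 117 in controls (4.15-fold lower, limma adjusted p = 0.0060).

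The widest of the 267 distal regions was also a loss. It spanned 32500 bp between *Hspa9*, which encodes a mitochondrial chaperone, and *Gm46617*, and its top bin chr18:35028501-35029000 held 32.8, 58.7 and 88.8 in *Tbx5*G125R/+ and 197, 141, 198, 94.2 and 216 in controls. It was 2.89-fold lower (limma adjusted p = 0.011), and the call was lost without control replicate 1 (limma adjusted p = 0.059) or 3 (limma adjusted p = 0.057). The next widest was the region in *Mir99ahg* (27750 bp), followed by that between *Lrrc55* and *Olfr987* (23500 bp).

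Distance from genes reached far beyond the limit of 50 kb. The median was 138.9 kb and the largest 1839.5 kb, and the gene-free interval around a region had a median of 568.5 kb. The distance rule itself makes these intervals wide. They were not compared with the other 1385 listed regions, of which 1043 lay within a protein-coding gene. Intervals of over 1 Mb held 78 distal regions (29.2%). Gains made up 81 of 93 regions at 50 to 100 kb, 88 of 98 at 100 to 250 kb, 43 of 55 at 250 to 500 kb and 19 of 21 beyond 500 kb. The median ratio of the gains was 13.9, 13.2, 9.86 and 11.6 in these classes. The size of the gains thus had no steady order with distance, and no trend was tested.

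The 3 regions farthest from genes were all gains. The farthest, chr18:27593751-27594250, lay 1839.5 kb from *Celf4*, an RNA-binding protein of neurons, in an interval of 4.51 Mb. Its levels were 15.7, 24.9 and 41.3 in *Tbx5*G125R/+ and 2.13, 7.49, 0, 0 and 0 in controls. The ratio of 13.4 (limma adjusted p = 0.0013) became 38.8 without control replicate 2. Between *Got2* and the cadherin gene *Cdh8*, chr8:97358501-97359000 lay 1470.3 kb from the nearer gene and held 170.0, 235 and 309.6 in *Tbx5*G125R/+, against 56.5, 34.7, 43.9, 15.2 and 0 in controls (limma adjusted p = 0.0050). The other was the region between *Stim2* and *Pcdh7* described above.

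**Figure D4:**
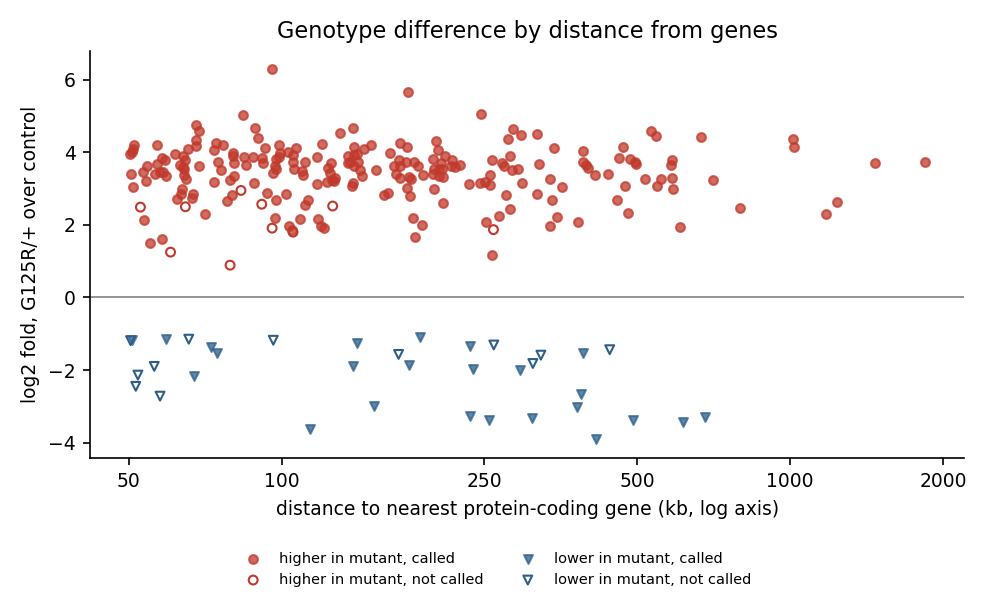
The log2 fold of *Tbx5*G125R/+ over control from limma (y axis) of each of the 267 distal regions is plotted against its distance to the nearest protein-coding gene in kb (log x axis), with red circles for gains, blue triangles for losses and filled symbols for regions that passed. Gains (231) and losses (36) occur from the limit of 50 kb outwards, and the 3 farthest regions are gains.

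Several gene deserts held a series of distal regions. The 267 regions fell into 211 intervals between neighbouring protein-coding genes, and 42 intervals held 2 or more, with 98 regions in all. Of these 42, 31 held gains only, 1 held losses only and 10 held both. The interval with losses only lay between *Ccdc71l* and *Nampt*, an enzyme of NAD synthesis, where chr12:32679501-32680000 averaged 142 ± 51.0 in *Tbx5*G125R/+ and 336 ± 112 in controls (SD, limma adjusted p = 0.0100) and chr12:32761001-32761500 averaged 102 ± 17.2 in *Tbx5*G125R/+ and 235 ± 75.3 in controls (limma adjusted p = 0.0095). The first of these calls was lost without control replicate 1 (limma adjusted p = 0.053) or 4 (limma adjusted p = 0.073), and the other without control replicate 3 (limma adjusted p = 0.055). Since 86.5% of the regions were gains, a series of gains is not by itself particular to an interval. Another listed region lay within 25 kb of 20 distal regions, 18 of them gains, and each shared its direction; with 86.5% gains among distal and 80.0% among other listed regions, nothing is read from this. Of 59 gains with a listed region inside a flanking gene, 47 had only gains there, and of 10 such losses 4 had only losses there, to be read against the same shares.

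The interval between *Fbxo15*, an F-box gene, and *Neto1*, which encodes an auxiliary subunit of kainate receptors, held 5 gains. Its strongest top bin, chr18:85248501-85249000, had the highest mutant level of all distal regions, with 618, 672 and 875 in *Tbx5*G125R/+ and 138, 213, 305, 191 and 39.0 in controls (3.98-fold, limma adjusted p = 4.4e-04). At chr18:85257251-85257750 levels were 143, 193 and 353 in *Tbx5*G125R/+ and 20.2, 34.1, 47.2, 31.9 and 23.4 in controls (7.33-fold, limma adjusted p = 2.6e-05). At chr18:85938501-85939000, 456 kb from *Neto1*, they were 303, 355 and 490.0 in *Tbx5*G125R/+ and 54.3, 66.8, 123, 91.4 and 13.7 in controls (5.44-fold, limma adjusted p = 2.4e-04). The other two were a 3.79-fold gain at chr18:85102501-85103000 and a gain of at least 26.7-fold at chr18:85179501-85180000, where controls had no read. With DESeq2 size factors from the listed bins, the log2 folds of the strongest bin and of chr18:85102501-85103000 were just below 0.

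Between the atypical cadherin gene *Fat4* and the planar polarity gene *Intu*, 4 regions were higher in the mutant and 3 of them passed limma. The strongest, chr3:40324001-40324500, held 227, 318 and 448 in *Tbx5*G125R/+ and 68.2, 24.5, 22.5, 40.2 and 7.80 in controls (9.99-fold, limma adjusted p = 2.6e-05). A second, chr3:39944251-39944750, held 19.8, 48.2 and 101 in *Tbx5*G125R/+ and 0, 10.2, 4.50, 5.54 and 0 in controls. Its ratio of 12.9 became 20.8 without control replicate 2. A further one, chr3:40425751-40426250 inside the non-coding gene *Gm30184*, varied widely within the mutant group (3.12, 14.4 and 72.2), against 0, 0.681, 1.12, 0 and 0 in controls. The fourth, chr3:39272501-39273000, overlapped between genotypes, with 30.8, 61.5 and 107 in *Tbx5*G125R/+ and 14.9, 17.0, 10.1, 34.6 and 11.7 in controls. It missed the threshold in limma (adjusted p = 0.052) and passed without *Tbx5*G125R/+ replicate 6 (limma adjusted p = 0.037) or control replicate 4 (limma adjusted p = 0.023). Its direction turned with DESeq2 size factors from the listed bins.

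Between *Gm30733* and *Prex1*, an activator of the small GTPase Rac, 4 regions were higher in the mutant and 3 passed limma. The clearest was chr2:166431251-166431750, with 6.56, 13.5 and 24.5 in *Tbx5*G125R/+ and 0, 0.681, 0, 0 and 0 in controls (limma adjusted p = 3.6e-05). At chr2:166485501-166486000 the ratio was 16.9 (limma adjusted p = 0.0021), and it was 27.6 without control replicate 1 and 26.4 without control replicate 2. At chr2:166405751-166406250 all *Tbx5*G125R/+ libraries (23.5, 54.8 and 74.4) exceeded all control libraries (10.7, 17.0, 9.0, 11.1 and 11.7), but the call (limma adjusted p = 0.023) was lost without *Tbx5*G125R/+ replicate 1 (0.11), 2 (0.094), 3 (0.089) or 5 (0.051) or control replicate 1 (0.052) or 3 (0.059). The fourth, chr2:166339001-166339500, did not pass (limma adjusted p = 0.17) with 50.9, 80.8 and 108 in *Tbx5*G125R/+ and 12.8, 38.2, 28.1, 31.9 and 0 in controls. It passed without control replicate 5 (limma adjusted p = 0.043), and its sign turned with DESeq2 size factors from the listed bins. Beside the strong bin between *Lrrc55* and *Olfr987*, narrow gains lay at chr2:85256501-85257000 (3.10, 21.1 and 67.8 in *Tbx5*G125R/+, 0, 1.36, 0, 0 and 0 in controls) and chr2:85257501-85258000 (4.47, 18.3 and 30.8 in *Tbx5*G125R/+, 2.13, 0, 0, 0 and 0 in controls).

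The interval between *Zeb2*, a transcription factor of epithelial-mesenchymal transition, and the activin receptor gene *Acvr2a* is 3.70 Mb long and held 5 distal regions, with gains at the *Zeb2* end and losses at the *Acvr2a* end. The gains were chr2:45531001-45531500, 414 kb from *Zeb2*, with 8.75, 19.6 and 29.9 in *Tbx5*G125R/+ and 0, 3.41, 0, 0 and 3.90 in controls, and chr2:45673751-45674250, 557 kb from it, with 20.1, 24.6 and 40.2 in *Tbx5*G125R/+ and 2.13, 3.41, 4.50, 1.38 and 0 in controls. Their ratios were 13.4 (23.0 without control replicate 5) and 11.8. The losses lay within 442 kb of *Acvr2a*, inside the non-coding gene *Gm13481*. At chr2:48432501-48433000 levels were 0, 3.74 and 8.75 in *Tbx5*G125R/+ and 29.8, 29.3, 31.5, 24.9 and 46.8 in controls (8.38-fold lower, limma adjusted p = 0.0065). At chr2:48426251-48426750 they were 0, 7.98 and 11.2 in *Tbx5*G125R/+ and 56.5, 38.8, 37.1, 44.3 and 19.5 in controls. This call (limma adjusted p = 0.044) was lost without *Tbx5*G125R/+ replicate 1, 3, 4, 5 or 6 or control replicate 1, 2, 3 or 4, with a limma adjusted p between 0.056 and 0.15. At chr2:48372251-48372750 the levels did not overlap, with 17.5, 20.8 and 30.3 in *Tbx5*G125R/+ and 35.1, 51.1, 81.0, 56.8 and 97.5 in controls, but the difference did not pass (limma adjusted p = 0.13).

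Gains and losses stood in the same interval at 9 more places, chosen here for this pattern after their values had been seen. Between the extracellular matrix gene *Hmcn1* and *3110040M04Rik*, a gain from empty controls at chr1:151044251-151044750 (2.19, 20.1 and 32.9 in *Tbx5*G125R/+, limma adjusted p = 1.2e-04) lay within 88 kb of a loss at chr1:151131501-151132000 (25.4, 52.1 and 54.7 in *Tbx5*G125R/+, 128, 94.0, 145, 108 and 85.8 in controls, limma adjusted p = 0.038). The call of this loss was not kept without *Tbx5*G125R/+ replicate 1, 2, 3 or 6 or control replicate 1, 2, 3 or 4, with a limma adjusted p between 0.055 and 0.17. Near *Auts2*, the loss given above lay 306 kb from a gain at chr5:132653001-132653500, with 11.7, 22.4 and 36.2 in *Tbx5*G125R/+ and 2.13, 0.681, 0, 5.54 and 0 in controls. That gain was 13.0-fold, and 30.8-fold without control replicate 4 (limma adjusted p = 0.0018 with all libraries). Between *Fstl5*, which encodes a follistatin-like protein, and *Rapgef2*, a gain at chr3:78593501-78594000 (8.94, 23.2 and 51.6 in *Tbx5*G125R/+, 0, 3.41, 0, 0 and 0 in controls) lay 211 kb from a loss at chr3:78383001-78383500 (0, 3.02 and 11.4 in *Tbx5*G125R/+, 6.39, 55.9, 24.7, 47.1 and 93.6 in controls). This loss overlapped between genotypes, and its call (limma adjusted p = 0.037) was lost without *Tbx5*G125R/+ replicate 2, 3, 5 or 6 or control replicate 2, 3, 4 or 5, with a limma adjusted p between 0.075 and 0.15.

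Between *Kcnt2*, a sodium-activated potassium channel gene, and *Cdc73*, a loss at chr1:141103751-141104250 (9.70-fold, limma adjusted p = 0.0071) and a gain at chr1:142898251-142898750 (5.91-fold, limma adjusted p = 0.012) were 1795.0 kb apart. The gain lost its call without *Tbx5*G125R/+ replicate 3 (limma adjusted p = 0.052) or control replicate 2 (limma adjusted p = 0.065). Between *Npvf*, which encodes neuropeptide precursors, and *Gm38821*, a loss at chr6:50891751-50892250 (16 ± 8.95 in *Tbx5*G125R/+, 65.6 ± 37.3 in controls, SD) lay beside a gain at chr6:50977501-50978000 (34.2 ± 17.3 in *Tbx5*G125R/+, 3.45 ± 3.70 in controls). The ratio of this gain was 9.91, and 18.1 without control replicate 4. The loss (limma adjusted p = 0.040) was called only with all libraries or without *Tbx5*G125R/+ replicate 6, and without any other 1 library the limma adjusted p lay between 0.055 and 0.12. In the intervals between *Etv1* and *Arl4a*, *Snx19* and *Adamts15*, and *Tent5a* and *Ibtk*, the gain passed limma (adjusted p of 0.0045, 5.4e-05 and 6.3e-04) and the lower region did not (adjusted p of 0.14, 0.15 and 0.057), although edgeR called all 3 lower regions. They passed limma without control replicate 3 (near *Etv1*, adjusted p = 0.0070), control replicate 5 (near *Adamts15*, 0.014) and control replicate 4 (near *Tent5a*, 0.029). Between *Rps24* and *Zmiz1* it was the loss that passed, while the sign of the other region turned under both rescalings on the listed bins.

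**Figure D5:**
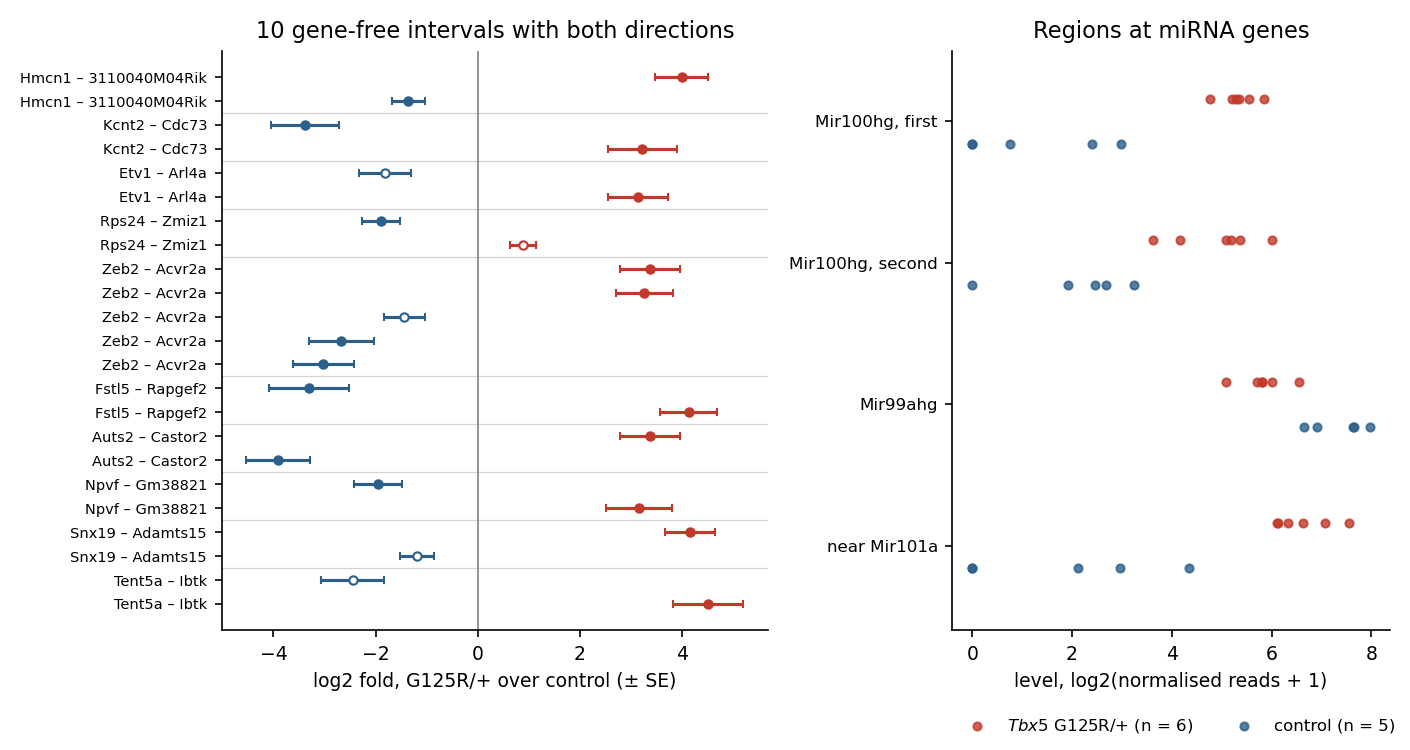
Left, limma log2 fold of *Tbx5*G125R/+ over control with its SE for the distal regions of the 10 gene-free intervals that hold gains (red) and losses (blue), open where the region did not pass; right, log2(normalised reads + 1) of each library at the regions in *Mir100hg*, in *Mir99ahg* and near *Mir101a*, *Tbx5*G125R/+ (n = 6) above control (n = 5). In *Mir100hg* and near *Mir101a* the mutant libraries are the higher ones, in *Mir99ahg* the lower ones, and the gain between *Rps24* and *Zmiz1* on the left changes sign when rescaled on the listed bins.

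Many distal regions lay inside genes of long non-coding RNAs. Of the 267, 52 (19.5%) were inside a non-coding gene of the annotation, against 8.30% of the other listed regions, which more often lie inside protein-coding genes by construction. Of these 52, 43 were higher in the mutant and 9 lower. In limma 39 gains (75% of the 52, against 76.6% over all listed regions) and 8 losses (15.4%, against 10.4%) passed, and at all 9 lower regions (17.3%, against 15.1%) every *Tbx5*G125R/+ library lay below every control library, so these counts stood near the background. Of the 52, 4 changed sign with TMM and 6 with DESeq2 size factors from the listed bins. The 6 with the smallest p were all gains. At chr16:30194501-30195000, 127 kb from the Notch effector *Hes1*, levels were 6.56, 16.5 and 29.6 in *Tbx5*G125R/+ and 0, 0.681, 0, 0 and 0 in controls. At chr9:30760001-30760500, in *Gm31013*, they were 9.39, 23.2 and 36.1 in *Tbx5*G125R/+ and 0, 1.36, 0, 0 and 0 in controls. At chr3:149306501-149307000, between the adhesion receptor genes *Adgrl2* and *Adgrl4*, they were 4.17, 31.2 and 61.1 in *Tbx5*G125R/+ and 0, 0, 1.12, 0 and 0 in controls. These 3 regions had ratios of the same kind of 88.7 (95% exact counting interval 15.7 to 3525), 48.2 (95% exact counting interval 13.2 to 401) and 147 (95% exact counting interval 26.2 to 5828), so wide intervals came with the few control reads, and such intervals cover counting error only. The others were chr18:68496751-68497250 in *Gm29677* (limma adjusted p = 1.1e-04), chr4:106044001-106044500 in *Gm30266* (limma adjusted p = 3.5e-04) and chr1:186412751-186413250 in *Gm35341* (limma adjusted p = 4.0e-04).

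The miRNA host genes and a few other named long non-coding RNAs were looked at after the values had been seen. In *Mir100hg*, chr9:41504001-41504500 held 26.3, 38.8 and 56.8 in *Tbx5*G125R/+ and 4.26, 0.681, 0, 6.92 and 0 in controls. This 17.0-fold gain (log2 fold 4.11 ± 0.62 SE, limma adjusted p = 5.5e-04) was 32.7-fold without control replicate 4, and it lay 27.2 kb from the hairpin of miR-100 and 32.5 kb from that of let-7a-2. A second region of *Mir100hg*, chr9:41588751-41589250, lay 7.04 kb from the hairpin of miR-125b-1 and held 11.3, 34.0 and 63.4 in *Tbx5*G125R/+ and 8.52, 5.45, 4.50, 2.77 and 0 in controls. Its call (limma adjusted p = 0.025) was lost without *Tbx5*G125R/+ replicate 2 (0.083), 4 (0.084), 5 (0.085) or 6 (0.079) or control replicate 4 (0.061). *Mir99ahg* went the other way. Its region, chr16:77508251-77508750, was 27750 bp wide, lay 90.5 kb from the hairpin of miR-99a, 91.2 kb from let-7c-1 and 137.8 kb from miR-125b-2, and held 32.8, 55.1 and 92.3 in *Tbx5*G125R/+ and 99.1, 119.9, 197, 199 and 249.6 in controls. It fell 2.96-fold (log2 fold -1.53 ± 0.31 SE, limma adjusted p = 0.0093), and without control replicate 3 it missed the threshold (limma adjusted p = 0.051). The miRNAs themselves were not measured here.

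Near *Mir101a*, chr4:101332751-101333250 lay 14.0 kb from the hairpin, between the kinase genes *Jak1* and *Ak4*, and held 68.0, 88.8 and 187 in *Tbx5*G125R/+ and 19.2, 6.81, 3.37, 0 and 0 in controls. The ratio was 18, or 41.6 without control replicate 1 (limma adjusted p = 3.5e-04 with all libraries). In *Pvt1*, the long non-coding neighbour of the proto-oncogene *Myc*, chr15:62166251-62166750 held 15.6, 25.4 and 39.6 in *Tbx5*G125R/+ and 3.20, 1.36, 3.37, 8.31 and 0 in controls. It rose 8.34-fold (limma adjusted p = 0.0072), or 13.7-fold without control replicate 4. In *Firre*, an X-linked RNA that organises nuclear chromatin, chrX:50578251-50578750 held 0, 5.35 and 7.82 in *Tbx5*G125R/+ and 38.3, 25.2, 56.2, 41.5 and 19.5 in controls (8.01-fold lower, limma adjusted p = 0.012). In *Lncenc1*, chr13:97435751-97436250 held 51.4, 57.8 and 65.6 in *Tbx5*G125R/+ and 17.0, 8.86, 36.0, 18 and 15.6 in controls without overlap, but its limma adjusted p of 0.048 was lost without any 1 *Tbx5*G125R/+ library or control replicate 1, 2 or 4 (0.078 to 0.14), edgeR did not call it (adjusted p = 0.16), and its sign turned under both rescalings on the listed bins.

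The genes on either side of a distal region were compared with 5 lists. Flanking does not show that a gene is the target of a region. The counts below are to be read against limma's shares of calls, and none was tested against them. Called gains made up 82.8% of the distal and 76.6% of all listed regions, and called losses 8.99 and 10.4%. Of 49 genes listed as cardiac transcription factors, 4 flanked a distal region. The list also held *Bmp10*, a secreted ligand, and *Ppargc1a*, a coactivator, neither of which flanked one. All 4 regions rose and kept this sign under both rescalings, a number too small to set apart from those shares. At *Tbx20*, a T-box factor of the heart, chr9:24885001-24885500 lay 111 kb from the gene and held 112, 168 and 283 in *Tbx5*G125R/+ and 47.9, 92.0, 16.9, 20.8 and 11.7 in controls. The ratio was 4.68 (log2 fold 2.54 ± 0.43 SE, limma adjusted p = 0.0015), and 7.28 without control replicate 2. At *Meis1*, a homeobox factor, chr11:19130501-19131000 held 7.26, 17.4 and 26.3 in *Tbx5*G125R/+ and 0, 2.73, 0, 0 and 0 in controls (limma adjusted p = 1.5e-04). At *Irx1*, of the Iroquois family, chr13:71666001-71666500 held 4.38, 16.1 and 21.8 in *Tbx5*G125R/+ and 0, 2.04, 0, 0 and 0 in controls (limma adjusted p = 1.6e-04). At *Tbx18*, a factor of the sinus node head and epicardium, chr9:87843751-87844250 averaged 41.0 ± 11.7 in *Tbx5*G125R/+ and 7.43 ± 4.64 in controls (SD, n = 6 and 5, limma adjusted p = 0.031). This call was lost without *Tbx5*G125R/+ replicate 1, 2, 3, 4 or 6 or control replicate 3, with a limma adjusted p between 0.063 and 0.11.

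Genes of cell adhesion stood beside 23 distal regions, all of which were higher in the mutant, and 22 passed limma (21 passed edgeR), where 82.8% of all distal and 76.6% of all listed regions were called gains in limma and 74.0% of all listed regions in edgeR, although 2 changed sign with DESeq2 size factors from the listed bins (none with TMM). Their median level was 51.8 normalised reads in *Tbx5*G125R/+ and 4.05 in controls, a median ratio of 12.9, against 31.4, 2.51 and 13.0 over all distal gains. The protocadherin gene *Pcdh18* flanked 4 of them. The strongest, chr3:48725751-48726250, averaged 211 ± 47.1 in *Tbx5*G125R/+ and 18.2 ± 13.8 in controls (limma adjusted p = 7.2e-04), 1017 kb from the gene. *Pcdh17* flanked chr14:80555001-80555500 at a distance of 3888.3 kb, with *Olfm4* nearer at 532.1 kb. This region averaged 113 ± 49.5 in *Tbx5*G125R/+ and 7.31 ± 9.25 in controls (limma adjusted p = 8.0e-04). The ephrin receptor gene *Epha4* flanked chr1:76821751-76822250, which averaged 51.8 ± 21.6 in *Tbx5*G125R/+ and 2.60 ± 3.93 in controls (limma adjusted p = 6.9e-04). The ratio was 15.5 at the region between *Olfm4* and *Pcdh17* (32.2 without control replicate 3) and 19.9 at that flanked by *Epha4* (49.9 without control replicate 2). The list was drawn up with results of these data known.

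Developmental transcription factors of other tissues flanked 27 distal regions, of which 20 rose, 5 fell and 2 did not pass, and no sign turned under either rescaling. The gains stood near the background of 76.6%. The losses stood above the shares of 8.99% of the distal and 10.4% of all listed regions, which was not tested. In edgeR 18 rose and 6 fell. Their median level was 30.5 in *Tbx5*G125R/+ and 7.52 in controls. Near *Tcf21*, a factor of epicardial cells and fibroblasts, chr10:23027751-23028250 held 13.4, 30.5 and 49.4 in *Tbx5*G125R/+ and 0, 2.04, 3.37, 2.77 and 0 in controls (limma adjusted p = 0.0010). Between the Krüppel-like genes *Klf5* and *Klf12*, chr14:99516501-99517000 held 9.29, 20.5 and 54.7 in *Tbx5*G125R/+ and 0, 2.04, 0, 0 and 0 in controls (limma adjusted p = 1.2e-04). A loss lay near *Bcl11a*, where chr11:24788751-24789250 averaged 3.07 ± 3.55 in *Tbx5*G125R/+ and 37.8 ± 23.0 in controls (limma adjusted p = 0.012), the genotypes overlapped, and the call was lost without *Tbx5*G125R/+ replicate 4 (limma adjusted p = 0.051). Its ratio of 0.0813 became 0.0480 without *Tbx5*G125R/+ replicate 3. Secreted signals and guidance cues flanked 16 regions, of which 13 rose, 2 fell and 1 did not pass, near the listed shares of 76.6% gains and 10.4% losses. No sign turned under either rescaling, and the median level was 24.3 in *Tbx5*G125R/+ and 3.02 in controls. The growth factor gene *Tgfb2* flanked 3 of the gains, among them chr1:186398251-186398750 (8.75, 19.8 and 26.2 in *Tbx5*G125R/+, 2.13, 0, 1.12, 0 and 0 in controls, limma adjusted p = 1.8e-04). Near *Robo1*, a receptor for Slit guidance cues, chr16:71943501-71944000 averaged 99.5 ± 38.8 in *Tbx5*G125R/+ and 6.32 ± 10.9 in controls (limma adjusted p = 4.8e-04). The ratio of 15.7 became 62.3 without control replicate 2. The matrix gene *Postn* flanked chr3:54480501-54481000, with 55.2 ± 22.3 in *Tbx5*G125R/+ and 3.49 ± 4.82 in controls (limma adjusted p = 9.5e-04), a ratio of 15.8, or 28.0 without control replicate 1. The 1 region of this list that did not pass, chr6:36584501-36585000, lay between the muscarinic receptor gene *Chrm2* and *Ptn* and averaged 8.27 ± 1.98 in *Tbx5*G125R/+ and 47.2 ± 50.7 in controls (limma adjusted p = 0.27). Here every *Tbx5*G125R/+ library lay below every control library, edgeR called the region as decreased (adjusted p = 0.037), and the ratio of 0.175 became 0.333 without control replicate 5.

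Ion channel genes flanked 6 regions, of which 5 rose and 1 fell, too few to set apart from the shares of called gains and losses. No sign turned under either rescaling. The list as drawn up also held *Trps1*, which is a transcription factor and was left out of this count. *Kcns3*, a modifier of voltage-gated potassium channels, flanked chr12:10512751-10513250 at 577.2 kb, with *Rdh14* nearer at 117.4 kb. This region held 21.7, 32.9 and 44.0 in *Tbx5*G125R/+ and 4.26, 0.681, 0, 0 and 3.90 in controls. The ratio was 17.7, or 27.3 without control replicate 1 (limma adjusted p = 5.8e-04 with all libraries). Near *Grin2b*, a subunit of glutamate receptors, chr6:135628751-135629250 held 0.623, 24.3 and 35.7 in *Tbx5*G125R/+ and 0 in every control library. It was at least 30.5-fold higher in the mutant (limma adjusted p = 9.0e-04). *Trps1* flanked chr15:51571501-51572000 at 681.1 kb, with *Eif3h* nearer at 214.8 kb. This region held 3.42, 15.4 and 49.9 in *Tbx5*G125R/+ and 0, 0, 1.12, 1.38 and 0 in controls (limma adjusted p = 0.0010).

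The regions nearest to the 50 kb limit are given here without a test. Just inside it were chr1:64482251-64482750 near *Creb1* (50.3 kb), with a mean of 34.0 ± 19.7 in *Tbx5*G125R/+ and 2.07 ± 3.6 in controls (SD), chr9:30848501-30849000 near *Adamts15* (50.4 kb), with 48.0 ± 8.97 in *Tbx5*G125R/+ and 118 ± 49.8 in controls, and chr4:15215001-15215500 near *Tmem64* (50.6 kb), with 20.6 ± 11.6 in *Tbx5*G125R/+ and 1.26 ± 1.86 in controls. The ratio of 16.4 at both gains inside the limit became 51.3 near *Creb1* and 31.2 near *Tmem64* without control replicate 4. Just outside the limit and not counted were chr3:19906751-19907250 near *Cp* (49.9 kb), with 26.2 ± 5.77 in *Tbx5*G125R/+ and 0.958 ± 1.49 in controls, chr2:85281001-85281500 near *Olfr987* (49.7 kb), with 305 ± 33.1 in *Tbx5*G125R/+ and 104 ± 27.9 in controls, and chr2:166516501-166517000 near *Prex1* (49.6 kb), with 182 ± 22.2 in *Tbx5*G125R/+ and 46.5 ± 9.89 in controls. The last 2 belong to intervals that also hold distal gains. Distal regions were found on all autosomes and on chromosome X. Chromosome 3 held most of them (27 of 100 listed regions), and chromosome 19 fewest (2 of 42).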

How the data were processed

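H3K27ac CUT&RUN libraries of PCM1+ atrial cardiomyocyte nuclei were analysed from 6 *Tbx5*G125R/+ and 5 control samples, grouped by the genotype in their labels. The authors mapped reads to mm10 with BWA, and their processing notes also name bedtools and DESeq2, with versions not given in the sources used here. The signal deposited by the authors for each region is the normalised read number of its 500 bp top bin, and it returned to whole reads in all values within a tolerance of 0.05 reads once the scale of each library was undone. The deposited log2 fold and p-value columns hold the authors' own comparison of the genotypes and were not used.

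The top bins were tested with limma 3.58.1 (empirical Bayes with trend, R 4.3.3) on log2(normalised reads + 1), without a filter, over all 1652 listed regions, with Benjamini-Hochberg adjustment over 126854 regions and a threshold of 0.05. Because the unit is a normalised signal, edgeR 4.0.16 and DESeq2 1.42.0 on the recovered reads were alternatives. The scripts were tested on simulated data. Distances were taken from the top-bin midpoint to RefSeq genes (GRCm38.p6). Levels are means ± SD (n = 6 and 5), and SE refers to limma log2 folds.

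The distance rule, gene lists and tests were chosen with earlier results of these data known. Regions were named by a rule: the 10 increased and 8 decreased with the smallest p and no overlap, the 3 with the highest level, the 3 farthest, up to 5 intervals with 3 or more regions, up to 6 in non-coding genes, 3 on each side of the 50 kb limit, up to 3 per flanking list and the 3 widest. Regions at promoters, miRNA genes, *Pvt1*, *Firre*, *Lncenc1*, *Tbx18*, *Bcl11a*, *Postn*, *Chrm2*, *Nampt*, *Pcdh17*, *Pcdh18*, *Epha4* and *Robo1*, and those in intervals with both directions, were added after their values had been seen. Alternatives covered test, scaling, pseudocount, filter, adjustment, distance rule, replicate block and each library left out.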

Additional observations from a re-analysis of the deposited data

Results flagged for a closer look

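In 91 distal regions named in the text, the 182 groups of 5 or 6 libraries of 1 genotype were searched for 1 library far from the others (Dixon's test at the 95% level). It was found in 31, and in 29 it was the highest library. In 17 of the 31 the other control libraries were all at 0, where any read sets a library apart by construction and the test says nothing. For the other 14, chance gives about 1 in 20 groups, a rate that holds for continuous values and only roughly for low reads. Control replicate 2 was the library in 13 of the 31, control replicate 1 in 5, control replicate 3 in 4, control replicates 4 and 5 in 2 each, *Tbx5*G125R/+ replicates 4 and 6 in 2 each and *Tbx5*G125R/+ replicate 5 in 1. Control replicate 2 was also the deepest control library, with a size factor of 1.47. No cause was tested.

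Among *Tbx5*G125R/+ libraries, replicate 4 had 210.5 normalised reads at chr18:85102501-85103000 between *Fbxo15* and *Neto1*, with the next at 120.3, and only 9.29 at chr18:68496751-68497250 between *Mc2r* and *Tcf4*, with the next at 24.3. Replicate 6 had 282.7 at chr9:24885001-24885500 near *Tbx20*, with the next at 174.4, and 33.4 at chr6:50891751-50892250 near *Npvf*, with the next at 16.5. Replicate 5 had 54.7 at chr14:99516501-99517000 between *Klf5* and *Klf12*, with the next at 25.9.

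Among control libraries, several stood apart at a level well above 0. Replicate 2 had 305.9 at chr2:85253501-85254000 near *Olfr987* (next 209.2), 25.2 near *Robo1* (next 6.39) and 7.49 at the region farthest from genes, near *Celf4* (next 2.13). Replicate 4 had 34.6 at chr3:39272501-39273000 near *Fat4* (next 17.0) and 8.31 near *Creb1* (next 2.04). Replicate 5 had 136.5 between *Chrm2* and *Ptn* (next 35.1) and 130.7 near *Npvf* (next 61.9). Replicate 3 had 13.5 at chr9:85457251-85457750 near *Tent5a* (next 1.36), where the ratio was 16.8 with and 75.3 without it, and a lowest value of 12.4 at chr18:85102501-85103000 (next 34.6). Replicate 1 had 12.8 near *Negr1*, with 0 in the other control libraries.

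In the remaining 16 groups 1 control library held a few reads and the others none. For replicate 2 this was 0.681 near *Emcn*, near *Prex1* (chr2:166431251-166431750) and between *Hes1* and *Cpn2*. It was 1.36 between *Efcab1* and *Ube2v2*, near *Olfr987* (chr2:85256501-85257000) and between *Snx19* and *Adamts15* (chr9:30760001-30760500). It was 2.04 near *Irx1* and between *Klf5* and *Klf12*, 2.73 near *Meis1* and 3.41 between *Fstl5* and *Rapgef2*. For replicate 1 it was 1.07 near *Zfp608*, 2.13 near *Olfr987* (chr2:85257501-85258000), 3.20 between *Plpp3* and *Usp24* and 4.26 near *Tgfb2* (chr1:186412751-186413250). For replicate 3 it was 3.37 between *Mc2r* and *Tcf4* and 1.12 between *Adgrl2* and *Adgrl4*.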

How the results depend on the processing

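Counts of distal gains and losses are given in this order. Against 221 and 24 in limma, DESeq2 on recovered reads gave 231 and 35, pseudocounts of 0.5 and 4 gave 200 and 18 and 229 and 32, and a mean level of at least 10 gave 204 and 23. Size factors computed on the listed bins gave 20 gains (DESeq2) and 27 (TMM), and 108 and 146 over all listed regions. Such factors take most bins as unchanged, so fewer gains are built in here. Listed losses were 310 with DESeq2 on recovered reads, 313 with either rescaling or with adjustment over the listed bins alone, and 259 with a pseudocount of 4, against 172. Leaving out 1 library gave 15 to 23 distal and 104 to 162 listed losses. A limit of 100 kb left 174 regions (147 gains), a distance from transcription start sites, without chromosome 18, gave 763 (592 gains, 83 losses, 81.5% higher in the mutant), and 27% lay within 5 kb of a non-coding gene. Log2 folds turned with DESeq2 size factors to -0.49 at chr2:85253501-85254000, -0.06 at chr18:85248501-85249000, -0.02 at chr18:85102501-85103000, -0.06 at chr3:39272501-39273000, -0.25 at chr2:166339001-166339500, -1.07 at chr14:25378501-25379000 and -0.38 at chr13:97435751-97436250, and with TMM to -0.24, -0.83 and -0.14 at the chromosome 2 region near *Olfr987* and those on chromosomes 14 and 13. Apart from the rescaling itself, causes were not tested. A replicate block over numbers 1 to 5 gave 203 and 21, against 201 and 19 without the block in the same libraries. Same-numbered libraries did not deviate together (r -0.145 to -0.0165 across regions). With 1 pair per number this cannot settle whether they were prepared together, and the labels do not say. The motif search in top bins was not run. Depth limits gains with few control reads, and no level was measured outside the listed regions.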
